A study of Mus musculus with 8 samples.

Results

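The genes described here are the core loop of the circadian clock: Per1, Per2, Per3, Cry1, Cry2, Arntl, Clock, Npas2, Nr1d1 and Nr1d2. They were taken by symbol from a table of 40800 genes, and all 10 of the 10 were present. The RNA came from dorsal root ganglia, which hold the cell bodies of the sensory neurons that serve the body below the head. The wild-type group was 4 C57BL/6 mice and the mutant group was 4 mice homozygous for a Tmem184b gene trap on the C57BL/6 background, each 6 months old. Such a trap is an inserted cassette that captures splicing and cuts the transcript short. The labels name 1 trap allele, no tissue-specific driver, and neither sex, litter, light schedule nor hour of dissection. A difference in hour between the groups therefore cannot be told apart from genotype. The deposited sample names also carry a longer number, consecutive over the mutants and higher in every wild type, with 1 wild type set apart. What that number stands for is not stated. Its part in the differences, and in the spread within each group, was not tested. The 10 genes were selected on their log2 CPM difference between mutant and wild type in these same samples, which was already known. Their differences and the ratio between them are therefore given as a description, and no p-value is given for a member. Which members passed the threshold used for all genes is stated as a description, beside the share of all genes, and supports nothing.

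In the clock loop, the transcription factor BMAL1, the product of Arntl, pairs with CLOCK or its close relative NPAS2 and binds E-box sequences. The pair activates the Per and Cry genes, whose proteins return to the nucleus and repress it. The same pair activates Nr1d1 and Nr1d2, which encode the nuclear receptors REV-ERB alpha and REV-ERB beta, and these repress Arntl and Npas2 through elements called ROREs. In peripheral tissues that keep a rhythm, Per and Nr1d transcripts run high when Arntl and Npas2 run low. The PAR bZIP factors Dbp, Tef and Hlf are outputs of the loop and act through D-boxes, which also stand in some Per promoters.

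Promoter stretches are printed for members that show each kind of element, since the elements define the arms of the loop. Sequences are from RefSeq (GRCm38.p6), run 5′ to 3′ on the gene's strand and have the matched element in capitals. A promoter here is the 250 bases before to 50 bases after an annotated start, and 9 of the 10 members had at least 1 in the table. The Per1 and Cry1 stretches show an E-box (CACGTG), Cry1 and Nr1d1 the variant CACGTT read on the other strand, Per3 a pair of D-boxes, and Arntl a RORE that begins 27 bases after its second annotated start.
Per1 (chr11:69098753-69098818, plus strand): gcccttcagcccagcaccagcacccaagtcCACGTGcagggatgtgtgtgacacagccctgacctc
Cry1 (chr10:85185089-85185153, minus strand): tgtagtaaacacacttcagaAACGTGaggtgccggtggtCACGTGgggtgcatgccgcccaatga
Nr1d1 (chr11:98775381-98775435, minus strand): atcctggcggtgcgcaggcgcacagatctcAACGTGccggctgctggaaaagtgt
Per3 (chr4:151044796-151044890, minus strand): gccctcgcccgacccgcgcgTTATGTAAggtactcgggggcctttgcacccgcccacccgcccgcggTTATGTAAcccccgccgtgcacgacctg
Arntl (chr7:113207528-113207557, plus strand): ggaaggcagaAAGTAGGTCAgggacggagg

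The motifs were searched on both strands. The E-box stood in 7.15% of all 32851 promoters in the table and the variant CACGTT in 4.68%. The D-box, searched as TTATGTAA or TTACGTAA, stood in 1.06%, and the RORE, searched as AANT followed directly by AGGTCA or GGGTCA, in 0.435%. The cyclic AMP element TGACGTCA, also searched, stood in 1.79% of promoters and in none of the members'. The Per1 E-box began 166 bases before the start, and the Per3 D-boxes began 205 and 158 bases before it. Cry2 held the variant CACGTT, also 166 bases before its start. No promoter of Clock, Npas2 or Nr1d2 in the table held any of these letters in this window. A match is a description of sequence and not evidence of binding in these ganglia.

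The genes listed summed to 6177680 to 7975562 reads per library. Tmem184b, which checks the genotype labels, was covered by 1086 to 1456 reads per wild-type library and by 34 to 58 reads per mutant library (log2 difference -4.64, SE 0.113; limma adjusted p = 2.57e-12; exact two-sided permutation p = 0.0286, the smallest that 4 against 4 samples allow). The 8 sensory neuron markers, among them Prph, Avil, Isl1, Scn10a, Scn9a, Pou4f1 and Tubb3, were present in every library and summed to 8422 to 8987 CPM (a gene's reads scaled to a common library total) in wild-type mice and 7823 to 8091 CPM in mutants. The series describes 4 mice of each genotype with 1 library each, and p-values measure the spread between these 8 samples. In bulk tissue, fewer cells of a type and less RNA per cell cannot be told apart.

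Levels differed widely among the members. Per kilobase of merged exon, Cry2 stood highest in the wild types, at 25.2 ± 2.16 CPM per kb, and Nr1d1 followed at 12.8 ± 4.09 (SD, n = 4, as for all SDs here). Clock at 9.88 ± 0.295, Per1 at 8.90 ± 0.455 and Nr1d2 at 7.59 ± 1.28 came next, and Nr1d1, Clock, Per1 and Nr1d2 lay within each other's spread or close to it. Cry1 at 3.95 ± 0.430, Per3 at 3.72 ± 0.442 and Per2 at 2.74 ± 0.456 formed a lower group. Npas2, at 1.75 ± 0.417, and Arntl, at 1.54 ± 0.765, were lowest and did not differ beyond their spread. In the mutants Per3 stood at 8.04 ± 0.605 CPM per kb, above Cry1 at 3.82 ± 0.0632 and Per2 at 4.88 ± 0.652. Arntl rested on 14 to 52 reads per library and Npas2 on 35 to 60, while every other member had at least 70 reads in each library.

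The 3 Per genes were higher in all 4 mutants than in any wild type, and the activator Arntl and its partner Npas2 had lower means in the mutants with overlapping groups. By limma at an adjusted p under 0.05, 4 of the 10 members were called higher in the mutant, namely Per1, Per2, Per3 and Nr1d2, and 2.81% of the 15030 genes tested were. None of the 10 was called lower, where 2.64% of all genes were; at an unadjusted p under 0.05 the number lower was also 0, and limma-voom on recovered reads likewise called 0 lower. In 3 members all mutants lay above all wild types, against 7.50% of genes tested. Since the members were picked with this contrast in view, nothing is read from these counts. The median log2 difference of the 10 was 0.17, and that of all genes tested was 0.07. All 10 passed the filter on low values.

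**Figure D1:**
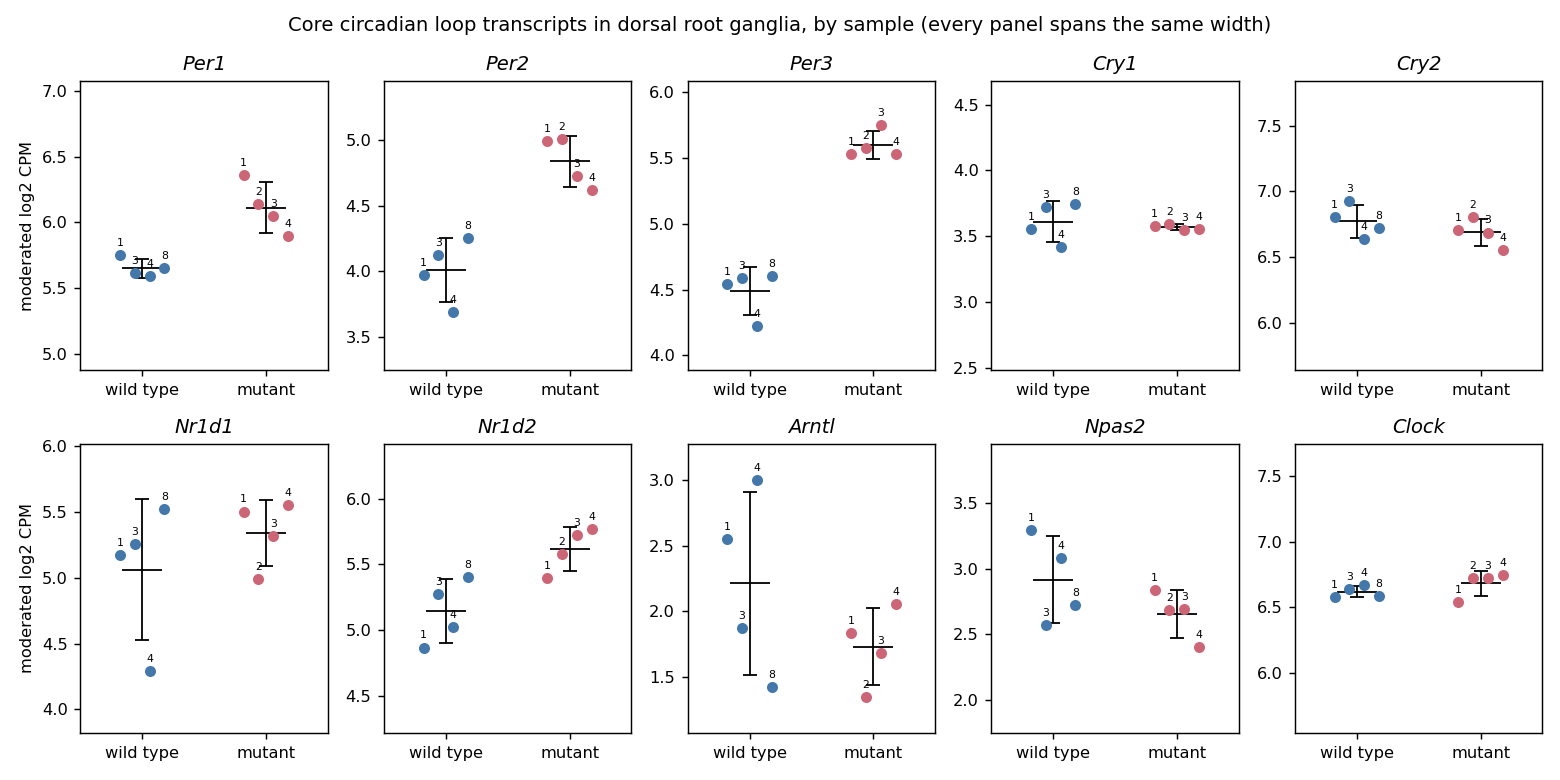
Moderated log2 CPM of the 10 core loop genes in each sample, wild type in blue and mutant in red, with the label number beside each point and bars for the mean ± SD (n = 4). Every vertical axis spans the same width. The Per panels show no overlap between the groups, and the Arntl, Npas2 and Nr1d1 panels show wide wild-type groups that contain or overlap the mutants.

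The Period genes encode negative-limb proteins of the loop. Per3 (ENSMUSG00000028957, chromosome 4) was at 4.54, 4.59, 4.22 and 4.60 log2 CPM in the wild-type mice numbered 1, 3, 4 and 8, against 5.53, 5.58, 5.75 and 5.53 in mutants 1, 2, 3 and 4. The groups were separated by 0.93 between the highest wild type and the lowest mutant, a gap wider than the range within either group. The difference was 1.11 (SE 0.0970), a 2.16-fold higher level, from 22.3 ± 2.65 to 48.3 ± 3.63 CPM.

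Per2 (ENSMUSG00000055866, chromosome 1), which with Per1 is needed for a sustained rhythm, was at 3.97, 4.13, 3.69 and 4.26 log2 CPM in wild-type mice against 4.99, 5.01, 4.73 and 4.62 in mutants, in the same order of samples. Wild type 8 was the highest wild type and mutant 4 the lowest mutant, 0.36 apart. The difference was 0.83 (SE 0.130), from 16.0 ± 2.66 to 28.5 ± 3.80 CPM. Per1 (ENSMUSG00000020893, chromosome 11), also an acute target of glucocorticoid and cyclic AMP signals, was at 5.75, 5.62, 5.59 and 5.65 in wild-type mice against 6.36, 6.14, 6.05 and 5.90 in mutants. The wild types lay within 0.16 of each other and the lowest mutant, mutant 4, was 0.14 above the highest. The difference was 0.46 (SE 0.0887), from 50.1 ± 2.56 to 69.4 ± 9.54 CPM.

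The Cryptochromes encode the partners of the PER proteins in repression, and neither differed beyond its spread. Cry1 (ENSMUSG00000020038, chromosome 10) was at 3.55, 3.72, 3.41 and 3.75 log2 CPM in wild-type mice against 3.58, 3.60, 3.55 and 3.55 in mutants. The mutants lay within 0.05 of each other and inside the wild-type range of 0.33. The difference was -0.04 (SE 0.118), and without wild type 8 it was 0.006. Cry2 (ENSMUSG00000068742, chromosome 2) ranged from 6.64 to 6.92 in wild-type mice against 6.55 to 6.80 in mutants, a difference of -0.08 (SE 0.0726). Unlike the Per genes, the Cry genes thus showed overlapping groups; the difference between a Per and a Cry response was not tested.

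The REV-ERB genes form the linked loop that represses Arntl. Nr1d2 (ENSMUSG00000021775, chromosome 14) was at 4.87, 5.28, 5.02 and 5.40 log2 CPM in wild-type mice against 5.40, 5.58, 5.73 and 5.77 in mutants. Wild type 8 and mutant 1 were level to within 0.01, and the other 3 mutants were above every wild type. The difference was 0.47 (SE 0.115), from 35.4 ± 5.96 to 49.0 ± 5.61 CPM. It ran from 0.38 to 0.56 over the 8 fits that each left out 1 sample, and it fell short of the threshold without wild type 1 or 4 or mutant 2, 3 or 4. It also fell short under median centring, under quantile normalization, without the variance trend and with no filter.

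Nr1d1 (ENSMUSG00000020889, chromosome 11) was at 5.18, 5.26, 4.29 and 5.52 log2 CPM in wild-type mice against 5.50, 4.99, 5.32 and 5.55 in mutants. Wild type 4 was low and the remaining wild types lay among the mutants. The difference was 0.28 (SE 0.202) with all samples and 0.02 without wild type 4, so its size rested on that animal. In GENCODE M21, 263 bases of Nr1d1 exon (9.67%) overlap Thra on the other strand, and whether counting used the strand is not given in the sources used here.

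Arntl and Npas2 are the REV-ERB targets in the positive limb. Arntl (ENSMUSG00000055116, chromosome 7) was at 2.55, 1.88, 3.0 and 1.43 log2 CPM in the wild types, from 35, 27, 52 and 19 reads. In the mutants it was at 1.84, 1.35, 1.68 and 2.05, from 22, 14, 19 and 27 reads. Wild types 1 and 4 were above every mutant, wild type 3 lay among the mutants and wild type 8 lay below 3 of the 4. The difference was -0.48 (SE 0.296), with -0.22 when wild type 4 was left out and -0.74 when wild type 8 was.

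Npas2 (ENSMUSG00000026077, chromosome 1) was at 3.30, 2.57, 3.08 and 2.72 log2 CPM in wild-type mice against 2.84, 2.69, 2.69 and 2.40 in mutants. Wild types 1 and 4 again stood above all mutants, and the other two lay among them. The difference was -0.26 (SE 0.181), and -0.13 without wild type 1. Clock (ENSMUSG00000029238, chromosome 5), whose transcript cycles little in most tissues, ranged from 6.58 to 6.67 in wild-type mice against 6.54 to 6.75 in mutants. The difference was 0.07 (SE 0.0618), and -0.03 under median centring of the samples.

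The arms were then set against each other within each sample, as the mean log2 CPM of Per1, Per2, Per3, Nr1d1 and Nr1d2 minus that of Arntl and Npas2. Any factor that scales a whole library cancels in this ratio. Wild-type mice 1, 3, 4 and 8 gave 1.94, 2.75, 1.52 and 3.01, and mutants 1, 2, 3 and 4 gave 3.22, 3.44, 3.33 and 3.25. All mutants were above all wild types, but the gap from wild type 8 to mutant 1 was only 0.205, and wild types 3 and 8 stood nearer to the mutants than to wild type 4. Wild types averaged 2.31 ± 0.69 and mutants 3.31 ± 0.10, a difference of 1.0. The wild types spread over 1.49 log2 units and the mutants over 0.22. Over Arntl alone these ranges were 2.10 and 0.69, so the narrow mutant range also rested on Npas2 being included. Without wild type 4 the difference was 0.74, and without wild type 8 it was 1.24. With Arntl alone below the line the groups overlapped, since wild type 8 stood at 3.66 and mutant 4 at 3.42, so the separation rested on Npas2 being included. Of the 5 genes taken singly over Arntl, Per3 alone kept the groups apart.

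The ratio was also taken for the Per genes and the Nr1d genes apart, and the difference between these was not tested. With the Per genes alone over Arntl and Npas2, the wild types ran from 1.46 to 2.76 and the mutants from 3.12 to 3.56, with a gap of 0.36 between the groups. With Nr1d1 and Nr1d2 alone, the wild types ran from 1.62 to 3.39 and the mutants from 3.11 to 3.43, and wild type 8 lay above 3 of the 4 mutants. Per3 over Npas2 gave the widest gap of the 10 gene pairs, 0.66, with wild types at 1.15 to 2.02 and mutants at 2.69 to 3.13. Nr1d1 over Arntl overlapped most, with wild types at 1.29 to 4.10 and mutants at 3.50 to 3.67.

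**Figure D2:**
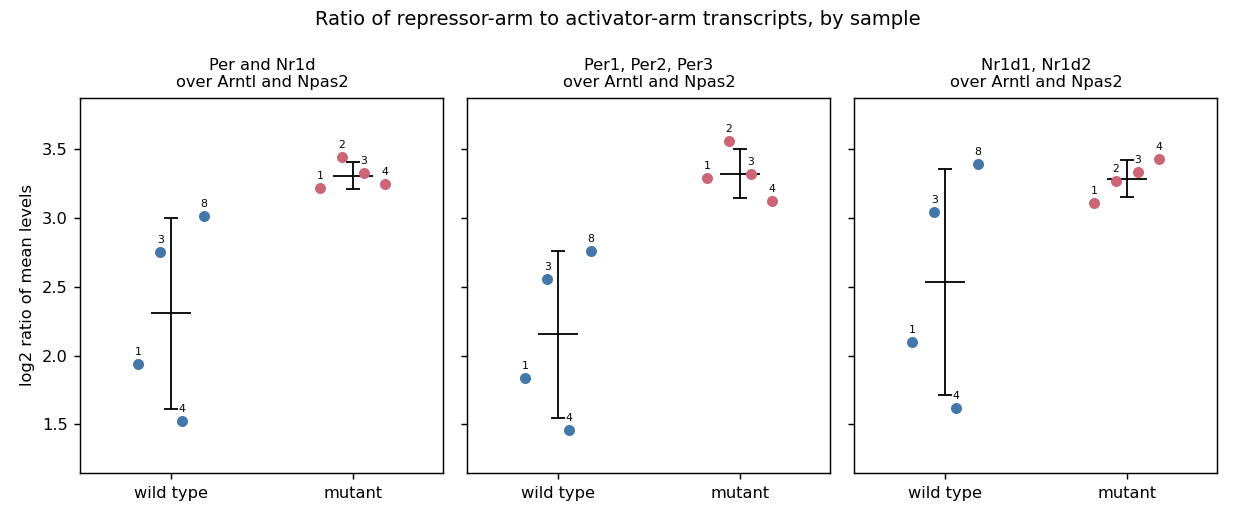
The log2 ratio of mean levels in each sample, for Per and Nr1d genes together, Per genes alone and Nr1d genes alone, each over Arntl and Npas2, with the mean ± SD of each genotype (n = 4). The mutants lie in a narrow band near 3.3 in every panel, and wild type 8 reaches that band only in the Nr1d panel.

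The order of samples inside the wild-type group was shared by several members. From low to high, wild types 4, 1, 3 and 8 stood in that order for Per2, Per3, Cry1 and Nr1d1, and Arntl had the exact reverse order. Per1, Cry2, Clock, Npas2 and Nr1d2 had other orders. The mutants showed no such pattern. There Arntl and Nr1d1 had the same order, mutants 2, 3, 1 and 4, and Per2, Per3 and Cry1 each had a different one. Deviations of each sample from its own genotype mean were compared over the 8 samples, which removes the difference between genotypes. Among the 45 pairs of members, Cry1 and Arntl were the most opposed (Pearson r = -0.93, Spearman rho = -0.90), and Per2 and Cry1 the most alike (r = 0.84, rho = 0.83). Per2 with Arntl gave r = -0.86 (rho = -0.83), Per1 with Clock r = -0.89 (rho = -0.90) and Npas2 with Nr1d2 r = -0.89 (rho = -0.88). These are descriptions over 8 samples that share libraries and depths, with Arntl at few reads, and no p is attached.

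Samples of like Arntl level are given side by side. In Per2 and Per3 every mutant exceeded every wild type, so any such pair must show the mutant higher there. Wild type 3 and mutant 1 had nearly the same Arntl, 1.88 and 1.84 log2 CPM, and differed in Per3 by 4.59 against 5.53 and in Per2 by 4.13 against 4.99. Wild type 8 and mutant 2, at 1.43 and 1.35 in Arntl, differed in Per3 by 4.60 against 5.58. In Cry1 the order was the other way, with wild types 3 and 8 at 3.72 and 3.75 and mutants 1 and 2 at 3.58 and 3.60. Wild types 3 and 8 exceeded every mutant in Cry1, so this order was fixed as well. The like Arntl levels rest on few reads, 27 and 22 in the first pair and 19 and 14 in the second. These pairs were picked after their values were seen and carry no test.

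**Figure D3:**
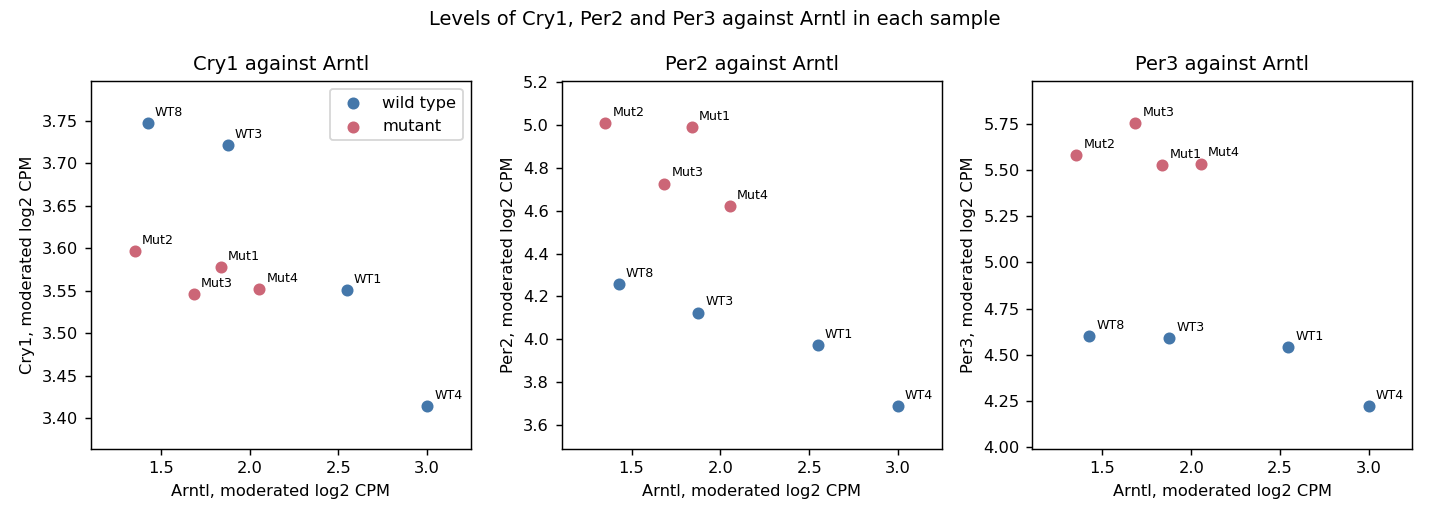
Moderated log2 CPM of Cry1, Per2 and Per3 against Arntl, 1 point per sample, wild type in blue and mutant in red. In the Per2 and Per3 panels all 4 mutants lie above every wild type, and in the Cry1 panel all 4 mutants lie below wild types 3 and 8.

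The genes most like the ratio in these deviations were ranked among 10114 tested genes with a mean of at least 3 log2 CPM that are not part of it. The 5 highest were Zfp277 (Pearson r = 0.98, Spearman rho = 1.0), Cry1 (r = 0.98, rho = 0.90), Lias (r = 0.96, rho = 0.95), Dgat2 (r = 0.96, rho = 0.88) and Pcyt1b (r = 0.95, rho = 0.95). The 5 lowest were Rab3il1 (r = -0.99, rho = -0.98), Arhgef2 (r = -0.98, rho = -0.90), Ctdsp2 (r = -0.97, rho = -0.95), Stk38 (r = -0.97, rho = -0.98) and Phldb1 (r = -0.96, rho = -0.90). Cry1, a core member that does not enter the ratio, was thus the second of 10114; Arntl, which has the widest spread of the members, does enter it. The ratio's deviations were mostly those of the wild types (SD 0.69, against 0.10 in the mutants), so the ranking rests mainly on those 4 samples. Over the wild types alone, r for Cry1 was 0.99. Without wild types 4 and 8, the samples farthest from the median, r for Cry1 was 0.94. The wild-type mean was not taken anew for this. Wild types 1 and 3 then set most of the value, so it is no check of the ranking. With so many genes ranked over 8 samples, the values describe these libraries alone.

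Other clock genes were compared from 2 lists, 11 outputs and secondary-loop genes and 20 kinases, ligases and partners of clock proteins. Of these 31 genes, all tested, 4 were called higher, Dbp, Tef, Hlf and Usp2, and 0 lower, beside 2.81% higher and 2.64% lower of all genes tested. At an unadjusted p under 0.05, 9 were higher and 4 lower, and limma-voom called 4 higher and 1, Bhlhe41, lower. Their median log2 difference was 0.03, beside 0.07 for all genes tested. As these lists were also chosen with earlier results known, their counts are a description.

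All 3 PAR bZIP activators were higher in the mutant. Dbp was at 2.09, 2.84, 2.20 and 3.53 log2 CPM in wild-type mice against 3.73, 3.37, 3.79 and 3.87 in mutants, so that wild type 8 again lay among the mutants. The difference was 1.02 (SE 0.255; limma adjusted p = 0.0306), and levels went from 6.60 ± 3.36 to 12.7 ± 1.87 CPM. Of the 8 fits that each left out 1 sample, 6 lost this call (wild types 1, 3 and 4 and mutants 1, 3 and 4, at limma adjusted p of 0.0528 to 0.0966). Quantile normalization and the robust trend also lost it (limma adjusted p = 0.0612 and 0.0718). So did fits without the variance trend or without the filter. Tef ran from 6.73 to 6.95 in wild-type mice against 7.10 to 7.26 in mutants, a difference of 0.35 (SE 0.0617; limma adjusted p = 0.00512). Hlf ran from 3.15 to 3.62 and from 3.91 to 4.26, a difference of 0.67 (SE 0.135; limma adjusted p = 0.0107). Tef and Hlf, like the Per genes, had no overlap between groups.

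Repressors among the outputs did not pass the test. Ciart, which encodes a repressor of the CLOCK and BMAL1 pair, was at 0.49, 1.27, 0.82 and 1.89 log2 CPM in wild-type mice against 2.46, 2.22, 1.68 and 1.78 in mutants (difference 0.92, SE 0.295; limma adjusted p = 0.0851), from 7 to 35 reads. Its promoter held 3 E-boxes, printed here because no promoter found for the members, Dbp, Tef, Hlf or Usp2 held as many.
Ciart (chr3:95882247-95882364, minus strand): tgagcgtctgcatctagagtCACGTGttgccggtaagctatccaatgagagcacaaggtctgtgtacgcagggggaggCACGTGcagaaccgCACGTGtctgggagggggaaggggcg
Bhlhe41, which encodes an E-box repressor, differed by -0.37 (SE 0.104; limma adjusted p = 0.0539). Its paralog Bhlhe40 differed the other way, by 0.31 (SE 0.105; limma adjusted p = 0.0992), with all mutants above all wild types, by a gap of 0.05. Nfil3, which competes for D-boxes, differed by 0.10 (SE 0.188; limma adjusted p = 0.798) and changed sign under quantile normalization, at -0.03. Rora, an activator at ROREs, differed by 0.03 (SE 0.0825; limma adjusted p = 0.876).

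Among the genes for enzymes that modify clock proteins, only Usp2, a deubiquitinase that is itself a clock output, was called. It ran from 3.37 to 3.72 log2 CPM in wild-type mice against 4.08 to 4.46 in mutants, a difference of 0.74 (SE 0.122; limma adjusted p = 0.00335). The casein kinase gene Csnk1d, which acts on PER proteins, differed by -0.09 (SE 0.0515; limma adjusted p = 0.364) and its relative Csnk1e by -0.20 (SE 0.0755; limma adjusted p = 0.139). Timeless differed by -0.48 (SE 0.149; limma adjusted p = 0.0769). Under median centring, Csnk1e, Bhlhe41 and Timeless were called lower.

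**Figure D4:**
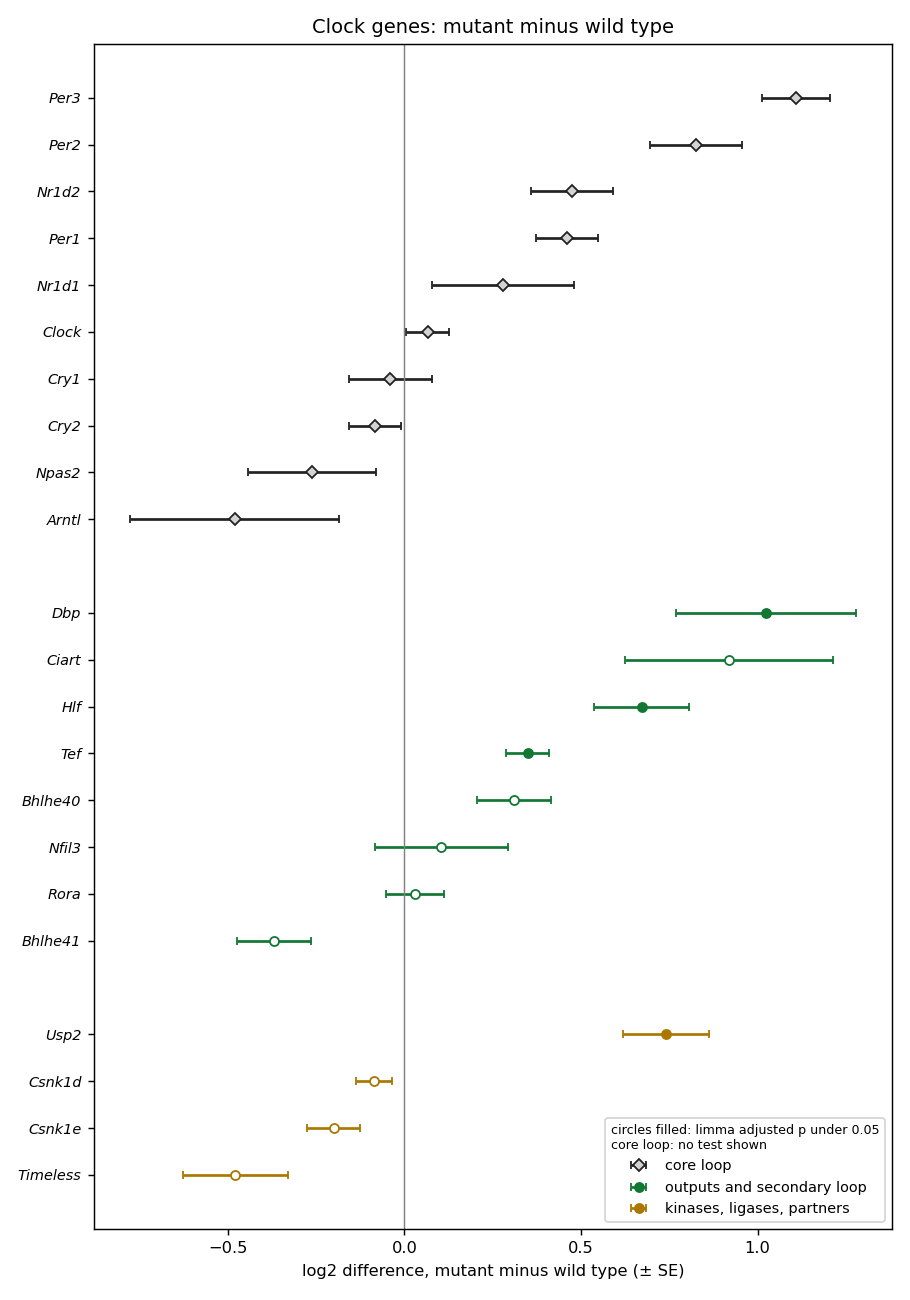
Log2 difference between mutant and wild type, with its SE, for the 10 core loop genes and for the other clock genes named in the text. Grey diamonds are the core loop genes, shown without a test; filled circles, Dbp, Tef, Hlf and Usp2, passed the limma adjusted p of 0.05 and lie to the right of 0.

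Glucocorticoid-responsive genes were examined beside the Per genes. Of 10 genes that respond to glucocorticoids, the adrenal hormones that also follow a daily rhythm, 8 were called higher and 0 lower (2.81% and 2.64% of all genes), with a median log2 difference of 0.70; at an unadjusted p under 0.05 none was lower, and limma-voom called 5 higher and 0 lower. The called genes were Fkbp5 (0.83; limma adjusted p = 0.0118), Tsc22d3 (0.59; 0.00216), Sgk1 (0.81; 0.00256), Ddit4 (0.54; 0.00397), Mt1 (1.02; 0.0142), Mt2 (1.48; 0.0336), Nfkbia (0.42; 0.0386) and Klf9 (0.33; 0.0401). Zbtb16 (1.07; limma adjusted p = 0.0657) and Errfi1 (0.18; 0.216) did not pass. The summed level of the 10 was 489 to 658 CPM in the wild types, lowest in wild type 4, and 748 to 1141 CPM in the mutants. Immediate early genes, of which Fos differed by -0.01 (SE 0.370; limma adjusted p = 0.994), had 0 of 10 called and summed to 177 to 264 CPM in wild-type mice against 214 to 246 CPM in mutants; at an unadjusted p under 0.05, 2 were higher and 1 lower, and limma-voom called 0. Wild type 8 was the highest wild type in 8 of these 10 genes. Its Fos level was 4.11 log2 CPM, where wild types 1, 3 and 4 ran from 1.92 to 2.37, and without it the Fos difference was 0.50 (SE 0.210; limma adjusted p = 0.199) and 1 of the 10 genes, Egr2, was called (0.94; limma adjusted p = 0.0400). The part of these groups in the Per differences was not tested. Both lists were chosen with earlier results of these data known, so nothing is read from their counts.

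Of marker lists, 2 of 8 sensory neuron genes were called lower (Avil at -0.22 and Scn10a at -0.46) and 2 of 6 satellite glia genes higher, among them Glul at 0.49, beside 2.64% lower and 2.81% higher of all genes. At an unadjusted p under 0.05, 4 neuron genes were lower and 4 satellite glia genes higher. The neuron sums given above did not overlap between the groups. In 3 further lists 1 gene was called higher: Ncmap at 0.69 of 6 for myelinating Schwann cells, Dcn at 0.60 of 6 for fibroblasts and Cd163 at 0.80 of 5 tested for macrophages. At an unadjusted p under 0.05, 2 Schwann, 3 fibroblast and 3 macrophage genes were higher and 0 were lower. Summed levels did overlap for satellite glia (1988 to 2447 against 2262 to 3148 CPM), Schwann cells (2235 to 2937 against 2598 to 3106 CPM), fibroblasts (611 to 1222 against 794 to 1177 CPM) and macrophages (35.9 to 55.3 against 49.7 to 78.4 CPM). Endothelial, skeletal muscle and adipocyte lists had no gene called by limma or limma-voom; at an unadjusted p under 0.05, 1 endothelial, 4 muscle and 0 adipocyte genes were higher and none was lower. The 5 muscle genes tested had a median log2 difference of 1.66, and the list summed to 3.49 to 32.9 CPM in wild-type mice against 10.5 to 155 CPM in mutants. No marker was at 0 reads in all libraries. The part of cell makeup in the clock gene differences was not tested, and the counts per list are a description.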

How the data were processed

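Dorsal root ganglion RNA of 4 wild-type and 4 mutant mice was compared. The authors deposited moderated log2 CPM per gene (reads per library total on a log2 scale, a small prior count added), per the table's name and values; per the submitters' processing notes, Salmon 0.11.1, DESeq2 and build mm9 are named, with no role. Of 41422 lines, 40800 gene identifiers were distinct, and the 402 repeated ones carried equal values. After the floor of -1.79 was removed, 100.0% of values were whole multiples (within 0.01) of the worth of 1 read (0.125 to 0.162 CPM), which gave reads per gene.

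Groups were compared with limma 3.58.1 in R 4.3.3 (mean-variance trend, two-sided, no covariate) on the 15030 genes above 0 log2 CPM in at least 4 of 8 samples, with Benjamini-Hochberg adjustment over all of them and a call at an adjusted p under 0.05. Fold changes on this scale understate changes of low genes. The procedure was tested on simulated reads. Alternatives covered the filter, pseudocount, scaling, variance model, voom with trimmed-mean factors, an Xist covariate, the replicate number as a block and leaving out each sample. The members and lists were chosen with earlier results of these data known, so nothing is read from the count of calls in any list. Named were all members, called genes of the other lists, preset genes (Dbp, Tef, Hlf, Ciart, Nfil3, Bhlhe41, Tsc22d3, Fkbp5, Fos) and the 5 genes most and least like the ratio. Rora, Bhlhe40, Zbtb16, Errfi1, Egr2, Csnk1d, Csnk1e, Timeless and Tspan4 were added after their values were seen. A few genes of these lists are counted but not reported here by name. Exon lengths, chromosomes and overlaps came from GENCODE M21 (GRCm38), by identifier, while promoter coordinates are RefSeq's. Other software was scipy 1.17.1, pandas 2.3.3, numpy 2.4.6 and matplotlib 3.10.9, under Python 3.11.15.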

Additional observations from a re-analysis of the deposited data

Results flagged for a closer look

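In 46 groups of 4 values (the named clock genes, 3 response genes and the ratio, by genotype), 4 had a sample far from the other 3, and chance gives about 1 in 20 groups. Per3 was at 4.22 log2 CPM in wild type 4 against 4.54 to 4.60 in the other wild types. Clock was at 6.54 in mutant 1 against 6.72 to 6.75 in the other mutants. Wild type 3 stood low in Nfil3, at 2.10 against 2.42 to 2.45, and in Bhlhe41, at 5.42 against 5.70 to 5.76.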

How the results depend on the processing

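The 4 core members called higher were 3 to 4 in the 8 fits that each left out 1 sample, 2 without the variance trend (Per2 and Per3) and 1 with no filter (Per3), where all 40800 genes were tested. Median centring and quantile normalization each called 3 (Per1, Per2 and Per3). No alternative called a member lower. The other clock genes called higher, 4 as reported, were 3 to 5 with 1 sample left out, 1 without the trend (Usp2) and 0 with no filter. Quantile normalization and the robust trend each called 3 of them higher, without Dbp. Those called lower, 0 as reported, were 3 under median centring, 2 under quantile normalization, 2 at an adjusted p under 0.1, 1 each under the robust trend, voom and the replicate block, and 0 to 2 with 1 sample left out (Bhlhe41 and Timeless without wild type 3, Bhlhe41 without mutant 3). The cause of these moves was not tested. Sign changes were seen for Cry1 without wild type 8 (0.0060; -0.105 to 0.0060 with 1 sample left out), Clock under median centring (-0.026) and Nfil3 under quantile normalization (-0.030) and without mutant 4 (-0.014; -0.014 to 0.239 with 1 sample left out). The ratio's difference ranged from 0.74 to 1.24 with 1 sample left out, and was 0.75 with Nr1d genes alone and 1.17 with Per genes alone. Over all genes, 423 higher and 397 lower calls became 204 and 706 under median centring (22.4% higher, against 51.6%), 271 and 422 under quantile normalization (39.1%), 251 and 535 with voom (31.9%), 67 and 75 without the trend and 14 and 24 with no filter, and higher calls ran from 174 to 572 with 1 sample left out.

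The labels share the numbers 1, 3 and 4 between genotypes, and whether these pair the samples is not stated. Deviations of samples that share a number correlated at 0.081, 0.041 and 0.058 over 15030 genes. Samples of unlike number were not compared, and values over all genes cannot exclude a pairing that moved only some genes. A fit of those 6 samples with the replicate block called 4 core members higher and gave a ratio difference of 1.19; the same samples with no block gave 3, without Per1. Among the members, depth limits Arntl and Npas2 most, at 14 to 60 reads.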

Other observations

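Genes that cycle in many mouse tissues were listed as Usp2, Tsc22d3, Tspan4, Wee1, Lonrf3, Coq10b, Nampt, Pdk4, Cdkn1a and Sgk1. Of these 10, 5 were called higher in the mutant and 0 lower, beside 2.81% and 2.64% of all genes tested (limma; 7 higher and 0 lower at an unadjusted p under 0.05, and 5 and 0 by limma-voom). Wee1, a cell-cycle kinase gene controlled by the clock, gave 2.95, 3.10, 2.60 and 3.23 log2 CPM in the wild-type mice (numbers 1, 3, 4, 8), against 3.84, 3.76, 3.45 and 3.60 in the mutants (1 to 4), a difference of 0.69 (SE 0.155; limma adjusted p = 0.0181). Its wild types stood in the same order as those of Per2, Per3, Cry1 and Nr1d1. Pdk4, which restrains glucose oxidation, differed by 0.63 (SE 0.147; limma adjusted p = 0.0229). Tspan4 differed by -0.01 (SE 0.0947; limma adjusted p = 0.974), so the genes of this list did not all move. Usp2 is also counted among the clock genes, and Tsc22d3 and Sgk1 among the glucocorticoid targets, so the lists are not independent. This list too was chosen with earlier results known, and nothing is read from its counts.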
